A study of Mus musculus with 9 samples.

Results

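The genes described here are 8 mouse genes of antigen presentation by major histocompatibility complex (MHC) class II. They were taken by symbol from a deposited table of 54532 genes. Their RNA was measured by RNA-seq in choroidal-retinal flat mounts of C57BL/6 mice, in 9 libraries of 3 groups with 3 libraries each. The first group, BetP-Gel@Ran, was sampled 3 months after an injection of a gel named BetP-Gel into the vitreous. The series concerns ranibizumab, an antibody fragment against vascular endothelial growth factor used in age-related macular degeneration, and the group's title carries "Ran", while its treatment field names the gel without the drug. The second group, titled wet-AMD, came from CNV mice, CNV being the usual short form of choroidal neovascularization. The third group was untreated. The labels give no age and no time for the CNV and untreated mice, do not say how CNV was brought about, and do not say whether the gel-treated mice had CNV. Time and treatment therefore cannot be told apart. Whether each library is a mouse of its own is not stated either. The p-values therefore describe the spread between these libraries, which may be technical.

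MHC class II molecules are pairs of an alpha and a beta chain that display peptides from engulfed proteins to CD4 T cells. The invariant chain, Cd74, holds new pairs in shape and blocks their groove until lysosomal proteases cut it, and the H2-DM pair then helps to exchange its last fragment for peptides. Dendritic cells, macrophages and B cells carry class II at rest, while many other cells make it after exposure to interferon-gamma. The coactivator Ciita switches the genes on. It binds no DNA itself and is held at class II promoters by factors that sit on conserved elements called the X and Y boxes.

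The promoter stretches of 3 members are shown because class II genes are known to share these elements. Each holds 80 bases, from base -110 to base -31 relative to the RefSeq gene start, on the strand of the gene in RefSeq build GRCm38.p6. They lie at chr17:34287854-34287933 on the minus strand for H2-Aa, at chr17:34305757-34305836 on the plus strand for H2-Eb1 and at chr17:34153081-34153160 on the plus strand for H2-DMb1. The H2-DMb1 stretch lies inside the gene as deposited, chr17:34153072-34160230, because the RefSeq start used here lies further along the gene. Capitals mark matches to the Y box core TGATTGG and, before it, to an X1 box pattern (AG, any 2 bases, AC, any base, then GATG) or, in H2-Aa, the cyclic AMP element TGACGTCA.

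H2-Aa: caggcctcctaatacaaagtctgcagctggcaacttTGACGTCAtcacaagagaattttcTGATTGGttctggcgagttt
H2-Eb1: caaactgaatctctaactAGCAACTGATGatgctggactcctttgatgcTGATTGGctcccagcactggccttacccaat
H2-DMb1: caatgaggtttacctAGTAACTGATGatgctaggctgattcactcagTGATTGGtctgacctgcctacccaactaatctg

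The marked elements were 16 bases apart in H2-Aa, 20 bases apart in H2-Eb1 and 21 bases apart in H2-DMb1. Windows of 250 bases before to 50 bases after the start were searched on both strands in 8 genes of the class II region, namely H2-Aa, H2-Eb1, H2-DMa, H2-DMb1 and the related H2-Eb2, H2-DMb2, H2-Oa and H2-Ob. The Y box core was found in 7 of the 8 genes, and in 7.82% of all 32851 promoter windows. The X1 pattern was found in 4 of them, H2-Eb1, H2-DMb1, H2-Eb2 and H2-Oa, and in 0.968% of all windows. The cyclic AMP element was found in H2-Aa alone, and in 1.79% of all windows. The matches did not overlap one another. H2-DMa held none of these letters in its windows. These are matches of letters, not measured binding. H2-Ab1, Cd74, Ciita and Cd86 were not searched.

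**Figure D1:**
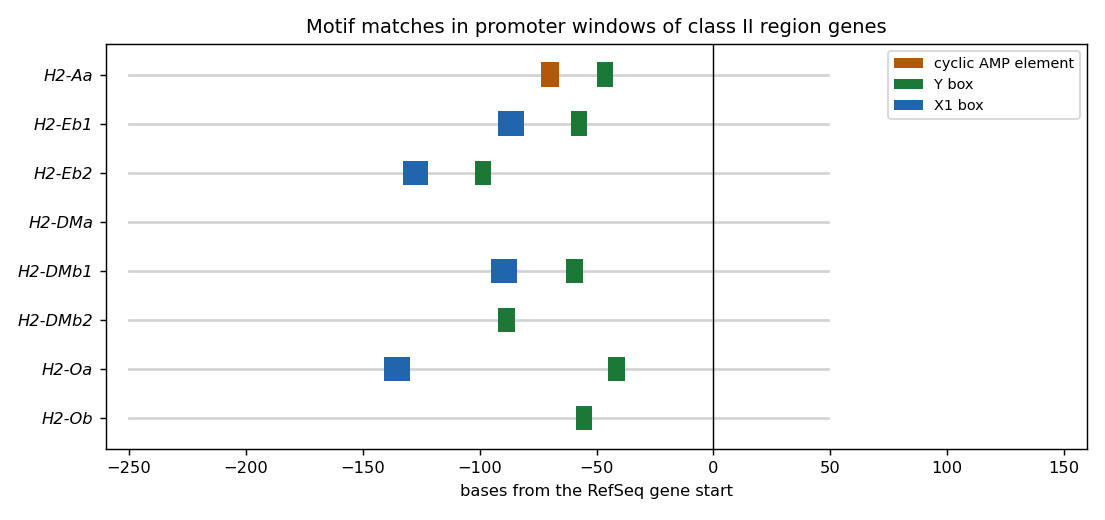
Positions of the X1 box pattern, the cyclic AMP element and the Y box core in the promoter windows of 8 genes of the class II region, in bases from the RefSeq gene start, with the gene running to the right. In every gene that holds both, the X1 pattern or the cyclic AMP element lies further from the start than the Y box.

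The libraries held 16990118 to 18753737 reads on genes, recovered from the deposited FPKM (fragments per kilobase of gene per 1e6 mapped reads). A gene was tested if 3 or more libraries reached 1 FPKM, which 14086 genes did. Of the members, 7 were tested and Ciita was not. The tissue was mixed. The pigment epithelium enzyme gene Rpe65 stood at 58.3 to 112 FPKM over the libraries, so that layer was present. The corneal keratin Krt12 stood at 3472 to 3561 FPKM in BetP-Gel@Ran libraries, 1383 to 2246 FPKM in CNV libraries and 4319 to 5314 FPKM in untreated libraries, so the samples also held RNA of the front of the eye, in amounts that did not overlap between groups. Its log2 fold change was -1.51 ± 0.18 in CNV against untreated and 1.11 ± 0.18 in BetP-Gel@Ran against CNV (limma adjusted p = 2.08e-04 and 0.00922). The sum of 8 skeletal muscle markers was 936 to 1140 FPKM in BetP-Gel@Ran libraries, 678 to 1155 FPKM in CNV libraries and 4392 to 4814 FPKM in untreated libraries. Rod and cone markers, 9 genes, had a median log2 fold change of -1.08 in CNV against untreated and -0.92 in BetP-Gel@Ran against untreated. The sum of 9 lens markers was 1032 to 4081 FPKM in BetP-Gel@Ran libraries and 5.67 to 97.6 FPKM in CNV libraries, and 469, 368 and 13411 FPKM in untreated libraries, of which replicate 3 stood apart. Markers of other tissues thus differed between the groups compared, and their part in the class II values was not tested. Rpe65 and Krt12 were chosen as examples after their values were seen. In bulk tissue, fewer cells of a type and less RNA per cell cannot be told apart, which touches every result below.

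The class II chains and the invariant chain formed the most abundant block of the members, and their mean levels were highest in BetP-Gel@Ran libraries, intermediate in CNV libraries and lowest in untreated libraries. H2-Aa, the alpha chain of the I-A molecule (ENSMUSG00000036594, mm10 chr17:34282744-34287827), had 77.3, 65.3 and 76.9 FPKM in BetP-Gel@Ran libraries, 58.3, 37.9 and 63.4 FPKM in CNV libraries, and 27.9, 27.3 and 32.6 FPKM in untreated libraries. Neither BetP-Gel@Ran nor CNV libraries overlapped the untreated ones, and the BetP-Gel@Ran libraries all lay above the CNV libraries. H2-Ab1, the beta chain that pairs with it (ENSMUSG00000073421, chr17:34263209-34269418), had 63.9, 48.6 and 54.8 FPKM in BetP-Gel@Ran libraries, 57.7, 33.6 and 47.1 FPKM in CNV libraries, and 25.9, 28.1 and 25.9 FPKM in untreated libraries. For this gene the BetP-Gel@Ran and CNV libraries overlapped, and both groups lay above the untreated libraries. CNV replicate 2 was the lowest CNV library for both chains.

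H2-Eb1, a beta chain of the I-E molecule (ENSMUSG00000060586, chr17:34305877-34316199), had 103, 78.7 and 87.6 FPKM in BetP-Gel@Ran libraries, 78.5, 51.1 and 74.9 FPKM in CNV libraries, and 36.0, 39.2 and 42.6 FPKM in untreated libraries. The 3 groups did not overlap, although the lowest BetP-Gel@Ran library and the highest CNV library were close. C57BL/6 mice are known to lack a working gene for the matching I-E alpha chain. The pseudogene H2-Ea-ps was listed with 0 reads in all 9 libraries, where 3 reads would be 0.221 to 0.271 FPKM. Cd74, the invariant chain (ENSMUSG00000024610, chr18:60803848-60812646), had 146, 141 and 155 FPKM in BetP-Gel@Ran libraries, 109, 79.2 and 123 FPKM in CNV libraries, and 64.7, 69.3 and 78.4 FPKM in untreated libraries. It was the most abundant member in every library, and CNV replicate 2 was just above the highest untreated library. A small microRNA gene, Mir5107, lies inside Cd74 on the same strand and held at most 7 reads in any library.

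**Figure D2:**
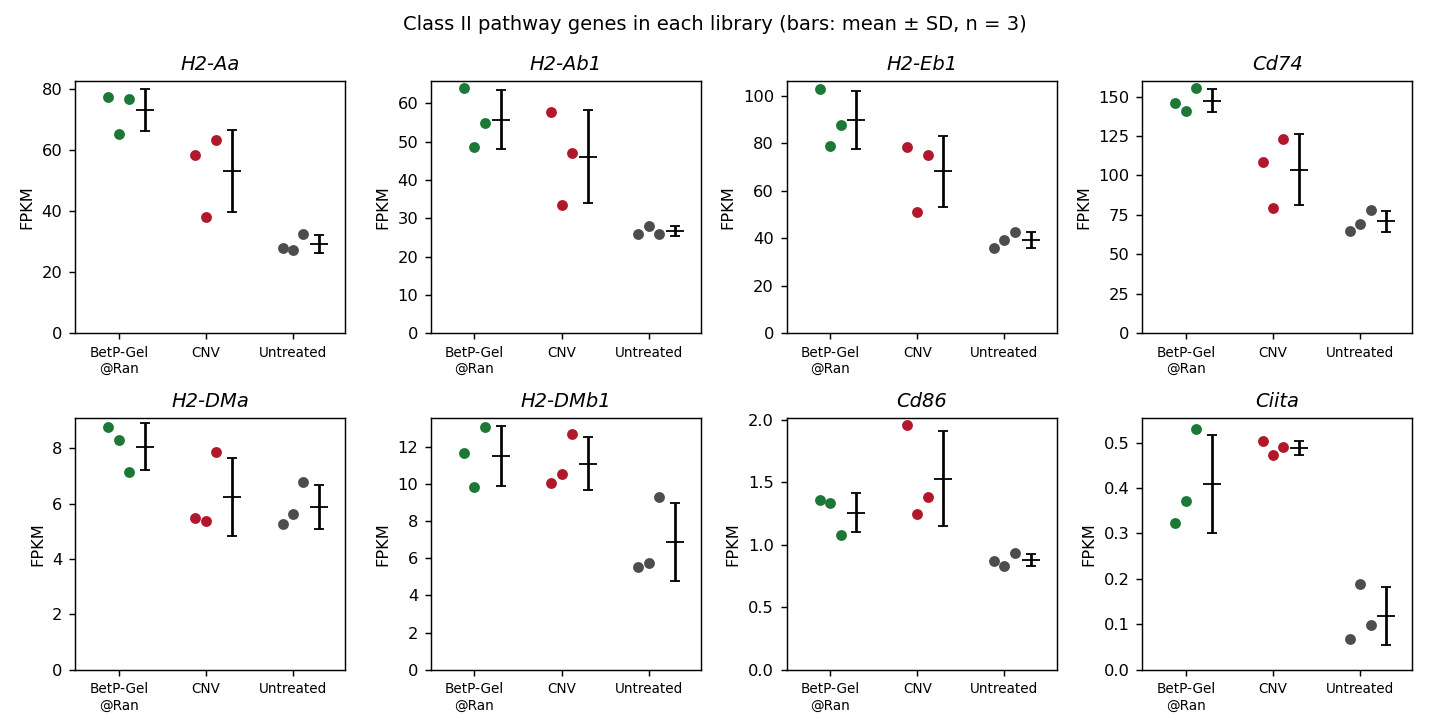
FPKM of the 8 members in each library, with BetP-Gel@Ran to the left, CNV in the middle and untreated to the right, 3 libraries each. Points are libraries and bars are group means with their SD; the group means of the 4 chains are highest for BetP-Gel@Ran, while those of Ciita and Cd86 are highest for CNV.

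The H2-DM genes, which encode the peptide editor, were less abundant than the chains per length of gene. H2-DMa, its alpha chain (ENSMUSG00000037649, chr17:34135182-34139101), had 8.76, 8.30 and 7.14 FPKM in BetP-Gel@Ran libraries, 5.47, 5.38 and 7.87 FPKM in CNV libraries, and 5.28, 5.63 and 6.80 FPKM in untreated libraries. CNV and untreated libraries overlapped, and BetP-Gel@Ran libraries lay above the untreated ones. H2-DMb1, a beta chain (ENSMUSG00000079547, chr17:34153072-34160230), had 11.6, 9.85 and 13.1 FPKM in BetP-Gel@Ran libraries, 10.03, 10.5 and 12.7 FPKM in CNV libraries, and 5.55, 5.76 and 9.30 FPKM in untreated libraries. The untreated libraries lay lowest, with replicate 3 close to the other groups. H2-DMb1 has a near-identical copy, H2-DMb2, so the split of reads between them is uncertain. H2-DMb2 had 1.00, 1.07 and 0.620 FPKM in BetP-Gel@Ran libraries, 0.885, 1.27 and 0.470 FPKM in CNV libraries, and 0.413, 0.329 and 0.362 FPKM in untreated libraries.

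Ciita and Cd86 were the least abundant members per length of gene. Ciita, the coactivator (ENSMUSG00000022504, chr16:10480059-10528418), had 54, 64 and 86 reads in BetP-Gel@Ran libraries, 95, 79 and 87 reads in CNV libraries, and 11, 32 and 15 reads in untreated libraries. Its means were 0.409 ± 0.109 FPKM in BetP-Gel@Ran libraries, 0.488 ± 0.0154 FPKM in CNV libraries and 0.118 ± 0.0631 FPKM in untreated libraries (SD, n = 3 each). The BetP-Gel@Ran and CNV libraries lay above the untreated ones and overlapped each other. The gene overlaps Dexi on the opposite strand, and the library kit does not mark the strand, so reads of the pair cannot be told apart. Dexi had 5.29 to 5.55 FPKM in BetP-Gel@Ran libraries, 5.04 to 5.64 FPKM in CNV libraries and 7.37 to 9.21 FPKM in untreated libraries, the reverse order of Ciita. Cd86, a ligand of the T cell receptors CD28 and CTLA-4 (ENSMUSG00000022901, chr16:36603869-36666081), had 1.36, 1.33 and 1.08 FPKM in BetP-Gel@Ran libraries, 1.96, 1.25 and 1.38 FPKM in CNV libraries, and 0.869, 0.831 and 0.931 FPKM in untreated libraries. It passed the filter only through the BetP-Gel@Ran and CNV libraries, since every untreated library was under 1 FPKM, and its call carries that choice.

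The first comparison, CNV against untreated, asks how the tissue of CNV mice differs from that of untreated mice. The 3 class II chains were higher in CNV libraries, by ratios of mean FPKM of 1.82 for H2-Aa, 1.73 for H2-Ab1 and 1.73 for H2-Eb1. The invariant chain, Cd74, was 1.46 times as high and the editor chain H2-DMb1 1.61 times as high. H2-DMa averaged 6.24 ± 1.41 FPKM in CNV libraries and 5.90 ± 0.795 FPKM in untreated libraries (SD, n = 3 each), a difference within the spread.

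Fold changes were tested with limma on log2(FPKM + 1), which understates the change of low genes, and adjusted by Benjamini-Hochberg over all tested genes. In CNV against untreated, 6 of the 7 tested members were higher and 0 were lower at an adjusted p under 0.05. The background was 22.5% of all tested genes called higher, and 44.6% called in either direction. One of the 6 is Cd86, with the limit just named. Without overlap between the groups, 6 members were higher in CNV libraries, beside 27.7% of all tested genes. The median log2 fold change was 0.64 over the 7 members and 0.01 over all tested genes. The chains had log2 fold changes of 0.81 ± 0.17 (SE) for H2-Aa, 0.74 ± 0.17 for H2-Ab1 and 0.76 ± 0.16 for H2-Eb1, with limma adjusted p = 0.00478, 0.00774 and 0.00486. These 3 calls held under all 20 alternatives tried. The calls of the other 3 were lost when certain libraries were left out. Cd74, at 0.52 ± 0.15 and limma adjusted p = 0.0180, had limma adjusted p = 0.0598, 0.0657 and 0.0516 without CNV replicate 1, untreated replicate 1 and untreated replicate 2. H2-DMb1, at 0.64 ± 0.18 and limma adjusted p = 0.0154, had limma adjusted p = 0.0504, 0.0592 and 0.0574 without CNV replicate 3, untreated replicate 1 and untreated replicate 2. Cd86, at 0.42 ± 0.12 and limma adjusted p = 0.0171, had limma adjusted p = 0.0559 without CNV replicate 1.

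Ciita could be tested only with no filter on low values, over 29374 genes. Its log2 fold change in CNV against untreated was then 0.41 ± 0.08 with limma adjusted p = 0.00737. In BetP-Gel@Ran against untreated it was 0.33 ± 0.08 with limma adjusted p = 0.0292, while for BetP-Gel@Ran against CNV the value was -0.08 ± 0.08 with limma adjusted p = 0.626. Dexi, its neighbour on the other strand, fell in CNV against untreated (log2 fold change -0.59 ± 0.09, limma adjusted p = 6.06e-04), and what part its reads have in the Ciita values was not tested.

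The second comparison, BetP-Gel@Ran against CNV, asks how the gel-treated tissue differs from that of CNV mice. Cd74 averaged 147 ± 7.40 FPKM in BetP-Gel@Ran libraries and 104 ± 22.4 FPKM in CNV libraries, a ratio of 1.42. H2-Aa averaged 73.2 ± 6.84 FPKM in BetP-Gel@Ran libraries and 53.2 ± 13.5 FPKM in CNV libraries. H2-Eb1 averaged 89.7 ± 12.2 FPKM in BetP-Gel@Ran libraries and 68.1 ± 14.9 FPKM in CNV libraries. These were the 3 members whose groups did not overlap with BetP-Gel@Ran above, where 18.3% of all tested genes did so. All these means are over 3 libraries with their SD.

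Cd74 was the one member called in BetP-Gel@Ran against CNV, with a log2 fold change of 0.53 ± 0.15 and limma adjusted p = 0.0460. The count of 1 in 7 stands beside 5.81% of all tested genes called higher and 14.1% called in either direction. The Cd74 call did not hold in 11 of 20 alternatives. With 1 library left out, it held only without CNV replicate 3, and the limma adjusted p was 0.0515 to 0.130 when any other was left out. Leaving out CNV replicate 2, the lowest library of the CNV group, gave a log2 fold change of 0.35 with adjusted p = 0.107. H2-Aa had 0.48 ± 0.17 (limma adjusted p = 0.0926), H2-Eb1 0.41 ± 0.16 (0.121), H2-Ab1 0.29 ± 0.17 (0.277) and H2-DMa 0.34 ± 0.14 (0.136), none of them past the threshold. H2-Aa and H2-DMa passed it without CNV replicate 3, with limma adjusted p = 0.0332 and 0.0173. H2-DMb1 differed by 0.05 ± 0.18 and Cd86 by -0.16 ± 0.12, with limma adjusted p = 0.868 and 0.393. A p above the threshold does not show that the groups were alike at 3 libraries each.

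The third comparison, BetP-Gel@Ran against untreated, sets the same gel libraries beside untreated tissue and shares libraries with both other comparisons. The chains were more than doubled on the FPKM scale, with ratios of means of 2.50 for H2-Aa, 2.28 for H2-Eb1, 2.09 for H2-Ab1 and 2.08 for Cd74. H2-DMb1 averaged 11.5 ± 1.62 FPKM in BetP-Gel@Ran libraries and 6.87 ± 2.11 FPKM in untreated libraries (SD, n = 3 each).

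In BetP-Gel@Ran against untreated, 5 of the 7 tested members were called higher and 0 lower, beside 16.1% of all tested genes called higher and 34.2% called in either direction. All 7 lay above the untreated libraries without overlap, beside 25.3% of all tested genes. The median log2 fold change was 1.03 over the members and -0.01 over all tested genes. H2-Aa had a log2 fold change of 1.29 ± 0.17 with limma adjusted p = 8.83e-04, H2-Eb1 had 1.17 ± 0.16 with 0.00105, Cd74 had 1.05 ± 0.15 with 0.00111 and H2-Ab1 had 1.03 ± 0.17 with 0.00250. These 4 calls held under all 20 alternatives. H2-DMb1, at 0.69 ± 0.18 with limma adjusted p = 0.0152, lost its call without BetP-Gel@Ran replicate 3, untreated replicate 1 or untreated replicate 2 (limma adjusted p = 0.0592, 0.0567 and 0.0551). H2-DMa, at 0.40 ± 0.14 with limma adjusted p = 0.0560, gained one in 7 of 20 alternatives, among them without CNV replicate 3 (limma adjusted p = 0.0170) or untreated replicate 3 (0.0427). Cd86 had 0.26 ± 0.12 with limma adjusted p = 0.113.

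**Figure D3:**
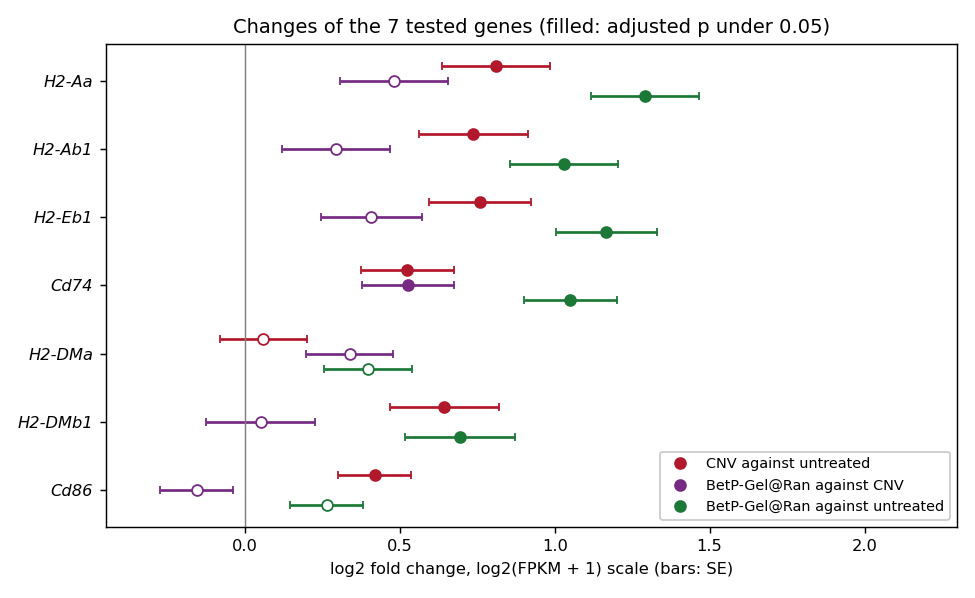
Log2 fold changes of the 7 tested members on the log2(FPKM + 1) scale in the 3 comparisons, with bars for the SE. Filled points have a limma adjusted p under 0.05 and open points do not. For the 4 chains, the points of BetP-Gel@Ran against untreated lie furthest right, at 1.03 to 1.29.

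Within a library the chains stood in similar, but not equal, proportions across groups. The ratio of Cd74 to H2-Aa was 2.02 ± 0.133 in BetP-Gel@Ran libraries, 1.96 ± 0.114 in CNV libraries and 2.42 ± 0.111 in untreated libraries. The ratio of H2-Eb1 to H2-Ab1 was 1.61 ± 0.0104 in BetP-Gel@Ran libraries, 1.49 ± 0.117 in CNV libraries and 1.48 ± 0.146 in untreated libraries (SD, n = 3 each for both). The Cd74 to H2-Aa ratio was thus higher in all untreated libraries than in any other, while the untreated libraries overlapped both other groups in the H2-Eb1 to H2-Ab1 ratio. The ratio of H2-DMb1 to H2-DMa was 1.45 ± 0.340 in BetP-Gel@Ran libraries, 1.80 ± 0.172 in CNV libraries and 1.15 ± 0.191 in untreated libraries, where BetP-Gel@Ran overlapped both other groups.

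The chains and the markers of macrophages, cells known to carry class II, were not ordered alike over the groups. Of 22 microglia and macrophage markers, all tested, 18 were higher and 0 lower in CNV against untreated, with a median log2 fold change of 1.37. The share of all tested genes called higher there was 22.5%. Of the 18 markers, the receptor genes Cx3cr1 and Ccr2 and the monocyte gene Ly6c2 were under 1 FPKM in every untreated library. These genes passed the filter only through the other groups. In BetP-Gel@Ran against CNV, 0 were higher and 11 lower, with a median of -0.54, beside 8.27% of all tested genes called lower. That count was 7, 2 and 5 without BetP-Gel@Ran replicates 1, 2 and 3, and 3 without CNV replicate 1 or CNV replicate 2. Lyz2, a lysozyme of myeloid cells and not of macrophages alone, had 623, 486 and 601 FPKM in BetP-Gel@Ran libraries, 1224, 1333 and 915 FPKM in CNV libraries, and 204, 227 and 236 FPKM in untreated libraries. C1qa and C1qb, complement subunits, and Tyrobp, a signalling adaptor of myeloid receptors, had the same order, with log2 fold changes of -0.72, -0.71 and -1.19 in BetP-Gel@Ran against CNV (limma adjusted p = 0.0221, 0.0208 and 0.00873). The summed markers were 922 to 1172 FPKM in BetP-Gel@Ran libraries, 1609 to 2328 FPKM in CNV libraries and 507 to 529 FPKM in untreated libraries, so these groups did not overlap. Lyz2 gave on average 570 of 1081 FPKM in BetP-Gel@Ran libraries, 1157 of 1994 FPKM in CNV libraries and 222 of 516 FPKM in untreated libraries.

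CNV replicate 2 was the highest CNV library for the summed macrophage markers and the lowest for the chains. The mean log2(FPKM + 1) of the 4 chains was 6.43 ± 0.135 in BetP-Gel@Ran libraries, 6.01 ± 0.347 in CNV libraries and 5.30 ± 0.0915 in untreated libraries. The mean over the macrophage markers was 3.75 ± 0.151 in BetP-Gel@Ran libraries, 4.22 ± 0.173 in CNV libraries and 2.90 ± 0.0176 in untreated libraries (SD, n = 3 each for both). Cd74 was set against Csf1r, the receptor for the macrophage growth factor, a gene picked for its role and with its values known. Their ratio was 15.1, 14.0 and 13.0 in BetP-Gel@Ran libraries, 8.66, 5.96 and 9.41 in CNV libraries, and 12.3, 12.7 and 14.1 in untreated libraries. Every CNV library lay below all others, and BetP-Gel@Ran and untreated libraries overlapped. Against Ptprc, the leukocyte antigen CD45 and also picked with its values known, the ratio of Cd74 was 161 to 232 in BetP-Gel@Ran libraries, 45.5 to 117 in CNV libraries and 370 to 411 in untreated libraries, so that BetP-Gel@Ran lay below untreated without overlap. Ptprc itself had 0.608 to 0.968 FPKM in BetP-Gel@Ran libraries and 0.158 to 0.196 FPKM in untreated libraries. It passed the filter only through CNV libraries, so the ratios of the other groups rest on a low divisor. The H2-Aa to Csf1r ratio was 6.98 ± 0.882 in BetP-Gel@Ran libraries, 4.12 ± 1.10 in CNV libraries and 5.38 ± 0.435 in untreated libraries (SD, n = 3 each), without overlap between groups. The H2-Eb1 to Csf1r ratio was 7.34 to 10.6 in BetP-Gel@Ran libraries, 3.85 to 6.27 in CNV libraries and 6.84 to 7.64 in untreated libraries, where BetP-Gel@Ran and untreated libraries overlapped. The H2-Ab1 to Csf1r ratio was 4.59 to 6.62 in BetP-Gel@Ran libraries, 2.53 to 4.603 in CNV libraries and 4.65 to 5.13 in untreated libraries, where BetP-Gel@Ran libraries overlapped both other groups. Which cells carried the class II RNA was not tested.

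**Figure D4:**
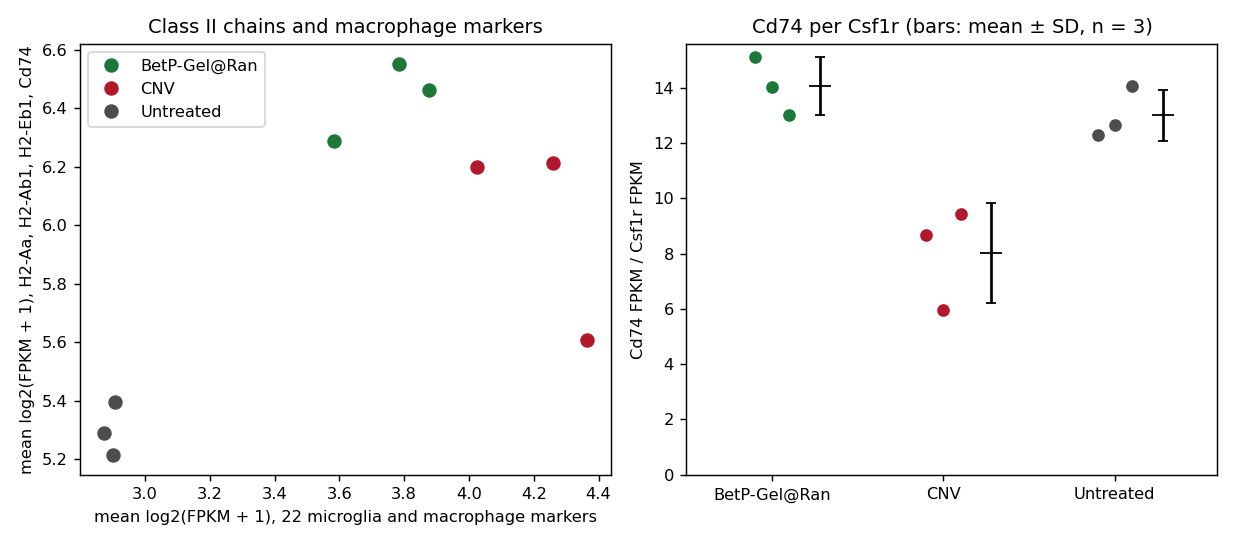
Left, mean log2(FPKM + 1) of H2-Aa, H2-Ab1, H2-Eb1 and Cd74 against that of 22 microglia and macrophage markers, 1 point per library. Right, the ratio of Cd74 to Csf1r in each library by group, with BetP-Gel@Ran to the left. The CNV libraries have the highest macrophage mean, 4.03 to 4.37, and the lowest ratio, 5.96 to 9.41.

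Genes of processing and turnover include the proteases that cut the invariant chain and the enzymes that tag class II for removal. Of 9 tested, 5 were higher in CNV against untreated (median log2 fold change 0.42), 5 were lower in BetP-Gel@Ran against CNV (median -0.51), and 2 were higher in BetP-Gel@Ran against untreated (median 0.21). The shares of all tested genes called in those directions were 22.5%, 8.27% and 16.1%. Those 5 lower genes were 3 without BetP-Gel@Ran replicate 1, 2 or 3, CNV replicate 1 or 2, or untreated replicate 1 or 2. The 2 higher genes in BetP-Gel@Ran against untreated were 1 in all single-library omissions other than CNV replicates 2 and 3. Ctss, cathepsin S, the main protease for the last cuts of the invariant chain in professional antigen-presenting cells, had 85.6, 78.7 and 106 FPKM in BetP-Gel@Ran libraries, 159, 244 and 152 FPKM in CNV libraries, and 31.1, 34.2 and 33.3 FPKM in untreated libraries. Its groups did not overlap, and its log2 fold change was 2.42 ± 0.18 in CNV against untreated (limma adjusted p = 1.84e-05) and -1.004 ± 0.18 in BetP-Gel@Ran against CNV (limma adjusted p = 0.0115). The lysosomal proteases Ctsd and Ctsb had log2 fold changes of -1.42 ± 0.19 and -0.82 ± 0.15 in BetP-Gel@Ran against CNV, with limma adjusted p = 0.00484 and 0.0122. Ctsl, cathepsin L, had 84.5 to 99.2 FPKM in BetP-Gel@Ran libraries, 102 to 141 FPKM in CNV libraries and 100.3 to 105 FPKM in untreated libraries, and did not pass the test in any comparison. March1 and March8, ubiquitin ligases of which the first is known to remove class II from the surface of resting cells, did not pass the test in any comparison; they were singled out with their values known. March1 had 2.88 to 3.58 FPKM in BetP-Gel@Ran libraries, 3.02 to 3.47 FPKM in CNV libraries and 3.39 to 4.11 FPKM in untreated libraries.

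The remaining chains and editors of the region were scarce. H2-Oa and H2-Ob, which form a pair known to restrain H2-DM, had 0.253 to 0.717 and 0.615 to 0.952 FPKM in BetP-Gel@Ran libraries, 0.423 to 0.612 and 0.736 to 1.17 FPKM in CNV libraries, and 0.0429 to 0.179 and 0.107 to 0.336 FPKM in untreated libraries. Untreated libraries were below all others for both. They rest on 1 to 65 reads per library and were below the filter. H2-Eb2 had at most 13 reads in any library. Of the 5 genes of this list in the table, H2-DMb2 alone was tested, and it did not pass in any comparison.

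The factors that sit on class II promoters had no common direction. Of 7 tested, 2 were called higher and 1 lower in each comparison with untreated libraries, and 0 were called in BetP-Gel@Ran against CNV. Of all tested genes, 22.5% were called higher and 22.1% lower in CNV against untreated, and 16.1% and 18.1% in BetP-Gel@Ran against untreated. In BetP-Gel@Ran against CNV 14.1% were called, so the counts say little about these factors as a set. Nfya, a subunit of the Y box factor, had 4.43, 4.57 and 4.27 FPKM in BetP-Gel@Ran libraries, 4.33, 4.67 and 4.45 FPKM in CNV libraries, and 2.35, 2.46 and 2.13 FPKM in untreated libraries. The untreated libraries were far below the others, which overlapped. Its log2 fold change was 0.71 ± 0.07 in BetP-Gel@Ran against untreated and 0.73 ± 0.07 in CNV against untreated, with limma adjusted p = 1.65e-04 and 6.54e-05. Nfyc, another subunit, had -0.36 ± 0.08 and -0.23 ± 0.08 in the same comparisons, with limma adjusted p = 0.00883 and 0.0428. Nfyb, the remaining subunit, and Rfxap, part of the X box complex, did not pass the test in any comparison. The other factor called higher was Creb1, a protein known to bind cyclic AMP elements.

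Interferon-gamma itself was close to absent from the counts. Ifng had 0 reads in all 3 BetP-Gel@Ran libraries, 0, 0 and 2 reads in CNV libraries, and 0, 2 and 1 reads in untreated libraries, where 3 reads would be 0.117 to 0.144 FPKM. At this depth no difference could be detected. Of 7 tested genes of its receptor and signalling path, 5 were higher in CNV against untreated, 2 were lower in BetP-Gel@Ran against CNV and 4 were higher in BetP-Gel@Ran against untreated. Among all tested genes, 22.5% were called higher, 8.27% lower and 16.1% higher in those comparisons. Those 2 lower genes were 0 or 1 when any library other than CNV replicate 3 was left out. Ifngr1, a receptor chain, had 27.4, 23.5 and 26.7 FPKM in BetP-Gel@Ran libraries, 34.0, 34.8 and 30.8 FPKM in CNV libraries, and 21.3, 19.7 and 19.6 FPKM in untreated libraries. Irf1, a factor that binds a Ciita promoter, had 74.7, 64.5 and 72.0 FPKM in BetP-Gel@Ran libraries, 52.2, 46.7 and 70.3 FPKM in CNV libraries, and 53.0, 45.9 and 48.1 FPKM in untreated libraries. It thus followed the chains in being highest on average in BetP-Gel@Ran libraries. Its log2 fold change was 0.51 ± 0.14 in BetP-Gel@Ran against untreated (limma adjusted p = 0.0198) and 0.33 ± 0.14 in BetP-Gel@Ran against CNV (limma adjusted p = 0.136). Ifngr2, the other receptor chain, had log2 fold changes of 0.59 ± 0.08 in CNV against untreated and -0.23 ± 0.08 in BetP-Gel@Ran against CNV, with limma adjusted p = 4.52e-04 and 0.0842. The kinase Jak1 did not pass the test in any comparison.

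Among ligands that stimulate or restrain T cells beside class II, 5 of 8 were tested, 2 were higher in each comparison with untreated libraries and 0 were called in BetP-Gel@Ran against CNV. Of all tested genes, 22.5% were called higher in CNV against untreated and 16.1% in BetP-Gel@Ran against untreated. In BetP-Gel@Ran against CNV, 14.1% of all tested genes were called. One of the 2 ligands called in CNV against untreated is Tnfsf9, of the tumor necrosis factor family. It was under 1 FPKM in every untreated library and passed the filter only through the other groups. Cd274, the inhibitory ligand PD-L1, had 44.1, 47.1 and 48.6 FPKM in BetP-Gel@Ran libraries, 36.0, 27.9 and 53.4 FPKM in CNV libraries, and 23.7, 21.1 and 17.7 FPKM in untreated libraries. The untreated libraries were the lowest, and the BetP-Gel@Ran and CNV libraries overlapped. Its log2 fold change was 1.13 ± 0.20 in BetP-Gel@Ran against untreated and 0.84 ± 0.20 in CNV against untreated, with limma adjusted p = 0.00305 and 0.00821. Icosl, the ligand of the receptor ICOS, had 3.11 to 3.26 FPKM in BetP-Gel@Ran libraries, 2.16 to 2.80 FPKM in CNV libraries and 2.21 to 2.63 FPKM in untreated libraries, with a log2 fold change of 0.31 ± 0.09 in BetP-Gel@Ran against untreated (limma adjusted p = 0.0281). The 2 genes called there were 1 without BetP-Gel@Ran replicate 1 or 3, or untreated replicate 1 or 3. Cd83 and Cd40 did not pass the test in any comparison.

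CD4 T cells are known to read class II and B cells to carry it. Most listed genes of T cells and of B and plasma cells were under 1 FPKM in all 9 libraries. Of 15 genes of T cells, 11 were under 1 FPKM in all 9 libraries, and the sum over the list was 5.13 to 7.29 FPKM in BetP-Gel@Ran libraries, 6.96 to 9.98 FPKM in CNV libraries and 3.35 to 4.99 FPKM in untreated libraries. Of 3 tested, 2 were higher in CNV against untreated, 1 was lower in BetP-Gel@Ran against CNV and 0 were called in BetP-Gel@Ran against untreated. In the same order, 22.5% of all tested genes were called higher, 8.27% lower and 34.2% in either direction. The 2 higher genes, Trbc1 and Trbc2, were under 1 FPKM in every untreated library and passed the filter only through the other groups, so their calls carry that choice. The 2 were 1 without CNV replicate 1 or 2 or any 1 untreated library, the 1 was 0 without any 1 BetP-Gel@Ran library or CNV replicate 1 or 2, and the 0 was 1 and 2 without CNV replicates 1 and 3. Trbc2, a constant segment of the receptor beta chain, had 1.15, 1.44 and 1.62 FPKM in BetP-Gel@Ran libraries, 4.38, 3.13 and 2.01 FPKM in CNV libraries, and 0.596, 0.814 and 0.806 FPKM in untreated libraries. Cd3e, a part of the T cell receptor complex, had 1 to 7 reads in any library and was chosen with its values known. Of 12 markers of B and plasma cells, 8 were under 1 FPKM in all libraries, and the summed list was 19.3 to 26.4 FPKM in BetP-Gel@Ran libraries, 16.96 to 23.5 FPKM in CNV libraries and 9.86 to 12.3 FPKM in untreated libraries. Of 3 tested, Ighm and Cd79b were higher and Jchain lower in both comparisons with untreated libraries, and 0 were called in BetP-Gel@Ran against CNV. Beside these, 44.6% of all tested genes were called in CNV against untreated, 34.2% in BetP-Gel@Ran against untreated and 14.1% in BetP-Gel@Ran against CNV. Ighm, the heavy chain of IgM, had 13.0 to 16.6 FPKM in BetP-Gel@Ran libraries, 11.8 to 14.7 FPKM in CNV libraries and 6.00 to 7.46 FPKM in untreated libraries, with a log2 fold change of 1.01 ± 0.11 in BetP-Gel@Ran against untreated (limma adjusted p = 3.26e-04).

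Of 13 markers of dendritic cells, 5 were tested and 6 were under 1 FPKM in all libraries, with a sum of 24.6 to 29.2 FPKM in BetP-Gel@Ran libraries, 33.5 to 51.2 FPKM in CNV libraries and 16.0 to 20.1 FPKM in untreated libraries. All 5 were called higher in CNV against untreated and 4 in BetP-Gel@Ran against untreated, where 22.5% and 16.1% of all tested genes were. However, 3 of the 5 passed the filter only through BetP-Gel@Ran and CNV libraries. In BetP-Gel@Ran against CNV, 2 of the 5 were lower, beside 8.27% of all tested genes. They were the bundling protein gene Fscn1 (log2 fold change -1.34 ± 0.25, limma adjusted p = 0.0146) and the factor gene Irf8 (-0.44 ± 0.12, limma adjusted p = 0.0452). That count was 0 or 1 when any library other than CNV replicate 3 was left out. Cd209a, a lectin of dendritic cells, had 3.82, 3.53 and 3.38 FPKM in BetP-Gel@Ran libraries, 2.87, 2.09 and 3.15 FPKM in CNV libraries, and 0.484, 0.783 and 0.861 FPKM in untreated libraries, an order like that of the chains. It had a log2 fold change of 0.32 ± 0.13 in BetP-Gel@Ran against CNV (limma adjusted p = 0.123). Clec10a, a lectin of dendritic cells and macrophages, had 7.01 to 8.19 FPKM in BetP-Gel@Ran libraries, 6.55 to 9.05 FPKM in CNV libraries and 1.80 to 2.25 FPKM in untreated libraries, so those of BetP-Gel@Ran and CNV overlapped. The 9 markers of leukocytes at large and of neutrophils summed to 37.9, 33.3 and 148 FPKM in BetP-Gel@Ran libraries. Their sum was 351 to 809 FPKM in CNV libraries and 34.8 to 50.05 FPKM in untreated libraries. S100a9, listed as a neutrophil marker, was its largest part on average. It gave 33.2 of 73.2 FPKM in BetP-Gel@Ran libraries, 340 of 545 FPKM in CNV libraries and 24.3 of 40.1 FPKM in untreated libraries. S100a9 had 7.65, 8.81 and 83.1 FPKM in BetP-Gel@Ran libraries. The B cell, T cell and dendritic cell sums were lowest in untreated libraries, like the chains and like the macrophage sum. Fscn1 was the largest part of the dendritic cell sum, and Ighm of the B cell sum. Fscn1 averaged 9.18 FPKM in BetP-Gel@Ran libraries, 26.1 FPKM in CNV libraries and 13.1 FPKM in untreated libraries, an order unlike that of the chains. The part of these cells in the class II values was not tested.

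**Figure D5:**
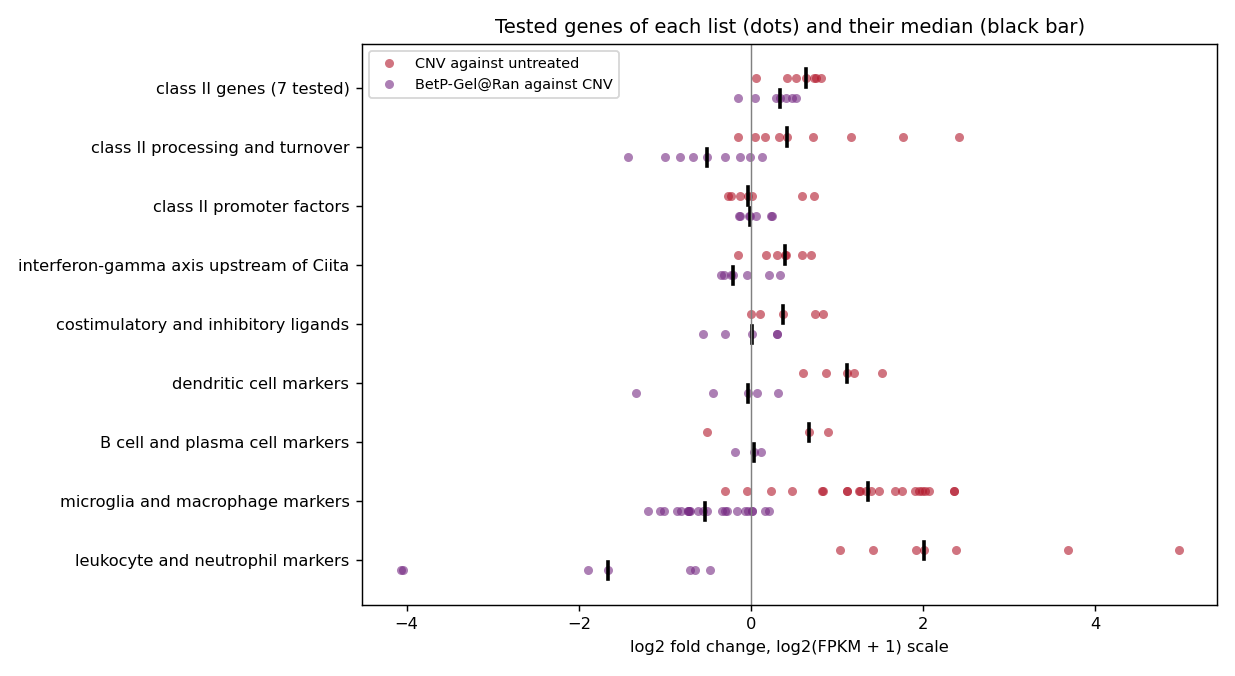
Log2 fold changes on the log2(FPKM + 1) scale of the members and of the related gene lists in CNV against untreated and in BetP-Gel@Ran against CNV, 1 point per tested gene, with a bar at each list's median. In BetP-Gel@Ran against CNV the members' median is 0.34, that of the macrophage markers -0.54 and that of processing and turnover -0.51.

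Over the 9 libraries, the genes outside the members whose log2(FPKM + 1) followed the mean of the 4 chains most closely were Ccnd1 (Pearson r = 0.980), Sh3rf1 (0.978), Ahnak (0.976), Spen (0.974) and Pik3c2b (0.973). The points share the 3 groups and their libraries, so no p is given. Ahnak, which encodes a large scaffold protein, averaged 58.6 ± 1.87 FPKM in BetP-Gel@Ran libraries, 43.6 ± 6.73 FPKM in CNV libraries and 27.8 ± 0.953 FPKM in untreated libraries (SD, n = 3 each). Ccnd1, cyclin D1 of the cell cycle, averaged 50.4 ± 5.95 FPKM in BetP-Gel@Ran libraries, 40.3 ± 8.10 FPKM in CNV libraries and 25.7 ± 0.636 FPKM in untreated libraries (SD, n = 3 each). Among members outside the 4 chains, the same r was 0.818 for H2-DMb1, 0.712 for H2-DMa and 0.677 for Cd86.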

How the data were processed

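The authors deposited 1 table of FPKM for 54532 genes in 9 libraries. Per the labels' protocols, poly-T selected RNA went into NEBNext Ultra libraries. The submitters' processing notes name HTSeq 0.6.0 and build mm10; no aligner is named in the sources used here. Multiplied by gene length, 100% of values came to whole steps, within a tolerance of 0.05, which gave back the reads, 16990118 to 18753737 per library. The implied scaling depth was 0.946 to 1.057 times that total, so the authors scaled by something else. Intervals and floors (3 reads per library) cover counting error only. In the table, 27 symbols had turned into dates and were looked up by gene ID.

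Genes reaching 1 FPKM in 3 or more libraries were fitted as log2(FPKM + 1) with limma 3.58.1 (trend and robust options, statmod 1.5.0, R 4.3.3), all 9 libraries in 1 fit with 1 mean per group and no covariate. P-values were two-sided, with Benjamini-Hochberg adjustment over all tested genes of a comparison and a threshold of 0.05. On simulated data with 100 genes changed at each size, log2 changes of 1 were recovered for 91%, 87% and 81% of genes in CNV against untreated, BetP-Gel@Ran against CNV and BetP-Gel@Ran against untreated, and changes of 0.5 were recovered for 51%, 46% and 54%. Of the calls, 8.39%, 6.99% and 3.57% were of unchanged genes. The simulated noise of a gene was independent and of the same size in every group, and few genes were changed. In the data 14.1% to 44.6% of tested genes were called and some libraries stood apart, so these rates need not hold there. No 2 replicates agreed within sampling noise (chi-square per gene of 7.79 to 40.1).

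The members and gene lists were chosen with earlier results of these data known. Named genes were all members, up to 4 genes per list of the highest mean FPKM, the genes of lists of 6 or fewer, the 5 genes most like the chains, and those said to be singled out. Alternatives were quantile normalization, a filter of 5 FPKM or none, a pseudocount of 0.1, FPKM rescaled to a common sum, limma voom on the recovered reads, reads per library total, only the groups compared, no trend or robust options, array weights, a replicate block and each library left out. Promoter sequences are from RefSeq GRCm38.p6; 8 of the genes had an entry. Some list genes are not reported here.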

Additional observations from a re-analysis of the deposited data

How the results depend on the processing

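Across 20 alternatives, the calls of H2-Aa, H2-Ab1 and H2-Eb1 in both comparisons with untreated libraries kept their direction and side of the threshold, with log2 fold changes of 0.56 to 1.03 in CNV against untreated and 0.93 to 1.41 in BetP-Gel@Ran against untreated. Members called in BetP-Gel@Ran against CNV, 1 as reported, were 0 with no filter, with only the groups compared and with no trend or robust options (Cd74 limma adjusted p = 0.101, 0.0819 and 0.0503), and 2 with array weights. Leaving out 1 library gave 0 to 3 members there, and 4 to 6 in each comparison with untreated libraries. Genes called in that comparison, 1983 as reported, were 853 with no filter, 1189 with only the groups compared, 3362 with array weights and 446 to 3215 with 1 library left out. In CNV against untreated 6281 of 14086 tested genes were called, and 3846 of 7863 with a filter of 5 FPKM, which tests fewer genes. In BetP-Gel@Ran against untreated 4813 were called, and 3198 to 5129 with 1 library left out. With 1 library left out, the log2 fold change of H2-DMa in CNV against untreated ranged from -0.096 to 0.15, below 0 without CNV replicate 3 or untreated replicate 1, and that of H2-DMb1 in BetP-Gel@Ran against CNV from -0.039 to 0.15, below 0 without BetP-Gel@Ran replicate 3 or CNV replicate 1; none was called. With reads per library total and with FPKM rescaled, the share of called genes that were higher was 62.7% and 59.8% in CNV against untreated, against 50.4% as reported, and 60.7% and 63.6% in BetP-Gel@Ran against untreated, against 47.1% as reported. No scaling moved the median of all genes by more than 0.0915. The replicate block called 6048, 1398 and 4467 genes and 6, 1 and 5 members in CNV against untreated, BetP-Gel@Ran against CNV and BetP-Gel@Ran against untreated. Same-numbered libraries did not deviate together (correlations of -0.148 to 0.084, others -0.191 to 0.171, and 2 of 9 libraries best with their own number). This gave no sign of pairing by number, but with 3 libraries per group it cannot exclude a shared batch. Limma voom on recovered reads called 6478, 2367 and 4988 genes and 6, 1 and 5 members. The causes of the other changes were not tested. Depth limits Ciita, H2-Oa, H2-Ob, H2-Eb2 and Ifng.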
